A study of Mus musculus with 8 samples.

Results

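The ETS factors are transcription factors that share a winged helix-turn-helix DNA-binding domain, the ETS domain, which reads a GGAA core. Several are needed for blood cells to form. PU.1, the product of Spi1, is required for dendritic cells to develop, and ETV6 and ETV3 are repressors with known roles in dendritic cell differentiation. The 7 genes described here are Spi1, Etv3, Etv6, Ets1, Ets2, Fli1 and Elf1, of 21900 protein-coding genes. They were taken by name, and a binding peak was counted for one of them when its centre lay inside the gene, or, where the centre lay in no protein-coding gene, when that gene had the nearest end. In this way 40 of 31473 peaks in type 1 conventional dendritic cells (cDC1) and 8 of 2776 peaks in type 2 (cDC2) belonged to the 7 genes.

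The peaks mark DC-SCRIPT, a zinc finger protein encoded by Zfp366, and were profiled by CUT&Tag, in which an antibody-bound transposase cuts and tags the DNA beside the protein. Cells were sorted from spleens of female C57BL/6 mice, each library from a pool of mice. The zfp366-/- (knockout, KO) groups had 2 libraries of cDC1 and 2 of cDC2, and the zfp366+/+ (wild-type, WT) groups had 3 libraries of cDC1 and 1 of cDC2. All mice share the strain and the sex, and the knockout cells served as the control against which peaks were listed. DC-SCRIPT is made in dendritic cells and can repress transcription. The labels and headers give neither the age of the mice nor the part of Zfp366 that was deleted.

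Each deposited list compares 1 set of wild-type tags with 1 set of knockout tags, so there is no value per library and no spread between mouse pools. In cDC1 the KO set held 12.2 M tags and the WT set 35.5 M. In cDC2 the KO set held 6.83 M and the WT set 4.77 M. Signal is given below as normalised tags, the tags in a peak per 10000000 tags of the set. Fold means WT over KO tags at equal depth and is the authors' own value for each peak, as is the score. The authors listed only peaks with a fold of 4 or more, so WT above KO is a condition of the list, and no test was made of it. The 95% intervals are exact and cover counting error only. They take no account of the selection of peaks by these same tags, so folds close to the limit of 4 may be too high. Where KO tags stood at the lowest value of the list, 0.5 tag, which also stands for none, the fold is given as a lower bound against 3 KO tags (2.47 normalised tags in cDC1, 4.40 in cDC2). This bound is not a 95% limit. The exact 95% lower limit of the fold, given beside it for named peaks, is lower. The files hold no expression values, so the identity of the sorted cells could be looked at only through peaks, which do not show expression. A cDC1 peak was carried by all 7 cDC1 markers (Xcr1, Clec9a, Cadm1, Itgae, Tlr3, Wdfy4 and Batf3), by 6 of 7 cDC2 markers (Sirpa, Itgam, Clec4a4, Cx3cr1, Irf4, Klf4 and Notch2), and by 51.3% of all protein-coding genes. The other markers counted 1 of 4 for T and NK cells (Cd3e, Lck, Zap70 and Ncr1) and 1 of 3 for erythroid cells (Hba-a1, Hbb-bs and Gata1). In the cDC2 list these counts were 3, 6, 0 and 0, with a peak at 9.53% of all protein-coding genes. Lists of 3 or 4 genes are too short to be read against those shares, so the labelled cell types could not be checked in this way.

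Of the 7 ETS factor genes, 6 carried at least 1 cDC1 peak, and 51.3% of all protein-coding genes did. In cDC2, 4 carried a peak, where 9.53% of all protein-coding genes did. Etv6 had 18 peaks in cDC1 and 4 in cDC2, Fli1 had 12 and 1, Ets2 had 4 and 2, and Etv3 had 2 and 1. Elf1 with 3 and Spi1 with 1 had peaks in cDC1 and none in cDC2. Ets1 had none in either list. All 4 genes with a cDC2 peak also had a cDC1 peak, and 9.01% of protein-coding genes had a peak in both lists.

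**Figure D1:**
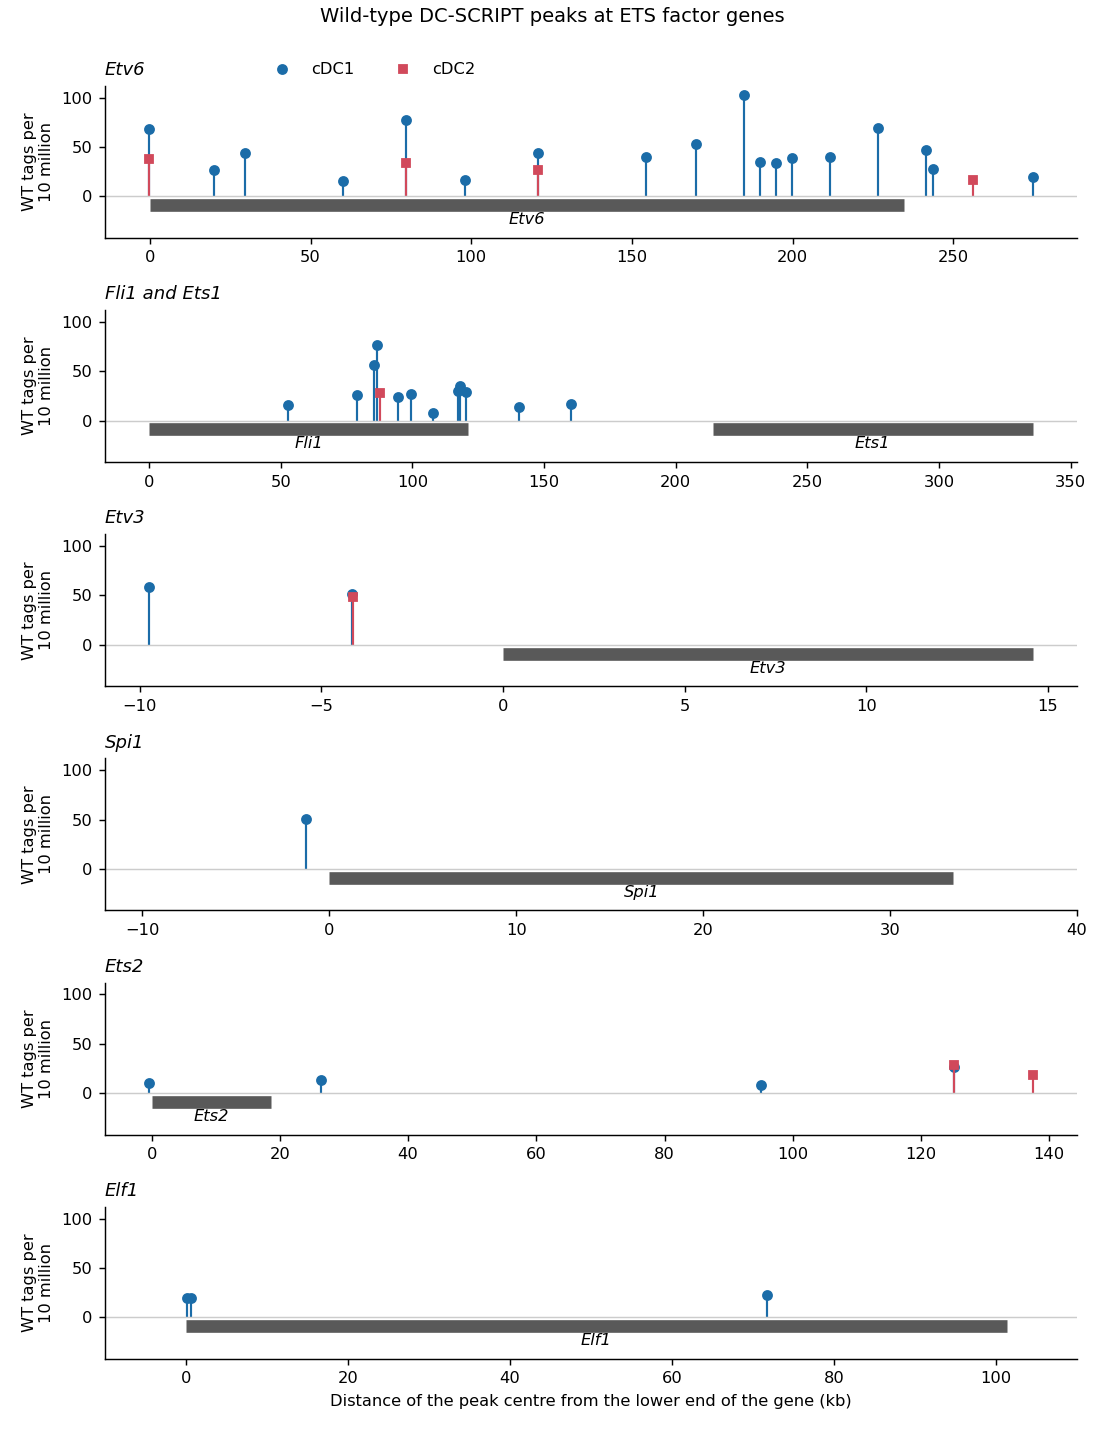
Peaks along each gene in kb from the lower end of the gene by coordinate, with WT tags per 10000000 tags on the vertical axis, blue circles for cDC1, red squares for cDC2 and grey bars for the genes. The 18 cDC1 peaks of Etv6 run along the whole gene and beyond its upper end, those of Fli1 lie in its upper part and above it, and Ets1 beside it has none.

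Etv6 encodes a repressor that is needed for blood stem cells and is known from leukaemia gene fusions. It lies on chromosome 6 from 134035700 to 134270158 (mouse build GRCm38, as in all coordinates here), on the plus strand. A peak stood directly before its start site in both subsets. The cDC1 peak, at 134035427 to 134035617, was centred 178 bp before the start. It lies between Etv6 and the protein-coding gene Gm46977, which runs the other way and starts at 134035312. Its edges lay 83 bp from the start of Etv6 and 115 bp from that of Gm46977. The sequence of this peak is shown because among the 4 ETS factor genes with a RefSeq promoter window it is the one start region listed in cDC1 and in cDC2. It is read 5′ to 3′ on the plus strand from the RefSeq promoter windows of both genes (GRCm38.p6), and the capitals mark the ETS core, here TTCC, which is GGAA on the other strand.
Etv6 start-site peak, chr6:134035427-134035617: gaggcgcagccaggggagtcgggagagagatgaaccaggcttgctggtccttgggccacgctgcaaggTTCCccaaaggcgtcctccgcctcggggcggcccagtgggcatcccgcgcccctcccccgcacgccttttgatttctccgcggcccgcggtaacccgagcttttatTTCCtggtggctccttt

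The stretch is 66.5% G and C and holds 16 CpG pairs. Among the first bases, as many as the peak has, of 21263 RefSeq promoter windows of protein-coding genes, the median was 53.9% G and C, and 16.9% of them were as rich in G and C. It holds 2 matches to the core GGAA, counting both strands. At least 1 match was found in 87.8% of the same stretches, and 63.4% held as many or more, so the number of cores in this peak is common. No match was found to the PU.1 site GAGGAAGT, the ETS-IRF composite element, the interferon-stimulated response element, the AP-1 site TGANTCA, the RUNX site TGTGGT or the E-box CACGTG, on either strand. These motifs were found in 1.52%, 1.66%, 2.36%, 4.90%, 9.73% and 4.45% of the stretches. The PU.1 site and the composite hold the core GGAA, so matches to them can overlap matches to it.

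At the start of Etv6, cDC1 had 6.58 normalised tags in KO cells, against 68.4 in WT cells, a fold of 10.4 (95% interval 5.20 to 24.4). In cDC2 the peak at 134035424 to 134035614 had 8.79 normalised tags in KO cells, against 37.7 in WT cells, a fold of 4.29 (95% interval 1.63 to 13.2). The centres of these peaks lay 3 bp apart. The cDC2 fold stood close to the limit of 4, with 6 KO tags and 18 WT tags behind it. KO cells of both subsets had signal here, and the KO value in cDC2 was the highest of the 8 ETS peaks in that list.

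Within Etv6 lay 14 cDC1 peaks, which is 5.97 per 100 kb, against 1.71 per 100 kb over all protein-coding gene bodies. In the rest of the ETS family, counted below, this density ran from 0, as at Elk1, to 11.7 at Erf, which has 1 peak. It was 0.879 at Erg and 7.96 at Elf2, so the density of Etv6 lies within the range of its relatives. Neighbouring peaks of Etv6 were 2.06 kb to 33.6 kb apart, with a median of 15.0 kb. The one with the highest score, rank 155 of the cDC1 list, lay 185 kb after the start at 134220390 to 134220580. It had 8.22 normalised tags in KO cells, against 102.3 in WT cells, a fold of 12.5 (95% interval 6.69 to 26.2). This was the highest WT value of the 40 ETS peaks, and its centre also lies in the long non-coding RNA gene Gm38908, which spans 134212217 to 134222869. Of the 18 cDC1 peaks of Etv6, 4 were centred in an annotated non-coding RNA gene.

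The next in score was the peak at 134262105 to 134262295, centred 7.96 kb before the upper end of Etv6, with 5.75 normalised tags in KO cells, against 69.6 in WT cells (fold 12.2, 95% interval 5.79 to 30.4). The peak at 134115150 to 134115340, 79.5 kb after the start, had 7.40 in KO cells, against 77.7 in WT cells (fold 10.5, 95% interval 5.46 to 23.2). The 4 Etv6 peaks with the most WT tags were also the 4 with the most KO tags. At 4 of the 18, KO tags stood at the lowest value. The highest of these, at 134205357 to 134205547, had 53.4 normalised tags in WT cells, 21.7-fold above 3 KO tags (exact 95% lower limit 17.4). Another, at 134189877 to 134190067, had 39.5 in WT cells and was 16.0-fold above (exact 95% lower limit 12.8). Over all 18 peaks, KO values ran from 0.411 to 8.22 normalised tags with a median of 2.67. WT values ran from 15.2 to 102.3 with a median of 39.5, where a fold of at least 4 was a condition of listing. Together the 18 peaks covered 3438 bp and held 68.0 KO tags, against 2834.3 WT tags, before scaling for depth. By count of peaks, 54 protein-coding genes had more than Etv6 in cDC1. Counting every cDC1 peak within 50 kb, whatever gene is nearer, Etv6 had 23. The added peaks were assigned to Gm46977, the closest 8.75 kb below Etv6.

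The 3 other cDC2 peaks of Etv6 lay in the gene body and beyond it. The peak at 134115262 to 134115452 had 5.86 normalised tags in KO cells, against 33.5 in WT cells (fold 5.72, 95% interval 1.84 to 23.5). The peak at 134156320 to 134156510 had 2.93 in KO cells, against 26.2 in WT cells (fold 8.93, 95% interval 2.10 to 84.8). Both overlap a cDC1 peak. The third, at 134291801 to 134291991, was centred 21.7 kb past the gene. Its KO tags stood at the lowest value, against 16.8 normalised tags in WT cells, 3.82-fold above 3 KO tags (exact 95% lower limit 2.44). No cDC1 peak overlaps it, and the nearest cDC1 peak was 12681 bp away.

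Etv3 encodes a repressor of another branch of the family, known in macrophages for holding back proliferation. It is a short gene on chromosome 3, from 87525577 to 87540158 on the plus strand, and it carried no peak inside the gene in either list. Both of its cDC1 peaks lay upstream. The peak at 87515746 to 87515936, 9.74 kb before the start, had 4.52 normalised tags in KO cells, against 58.6 in WT cells (fold 12.9, 95% interval 5.37 to 32.8). The peak at 87521320 to 87521510, 4.16 kb before the start, had 2.05 in KO cells, against 51.9 in WT cells (fold 25.2, 95% interval 7.09 to 103.0). Only the nearer site was listed in cDC2, at 87521349 to 87521539. There it had 5.13 normalised tags in KO cells, against 48.2 in WT cells (fold 9.39, 95% interval 2.81 to 32.7), the highest WT value of the 8 cDC2 peaks. Neither list touched the promoter window of Etv3, 250 bases before to 50 after the start.

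Spi1 lies on chromosome 2 from 91082374 to 91115759. Its single cDC1 peak, at 91081042 to 91081232, was centred 1.24 kb below the lower end of the gene. It had 6.16 normalised tags in KO cells, against 50.3 in WT cells (fold 8.13, 95% interval 3.79 to 18.0). Around Spi1, 5 more cDC1 peaks lay within 50 kb of the gene but belonged to neighbours under the assignment used. Of these, the peak at 91070401 to 91070591 lay 11.9 kb below Spi1 with Slc39a13, a zinc transporter gene, as nearest gene. It had 6.99 normalised tags in KO cells, against 36.8 in WT cells (fold 5.25, 95% interval 2.55 to 11.2). In cDC2, 1 peak lay in this neighbourhood, inside Rapsn, 39.6 kb below Spi1, with 8.06 normalised tags in KO cells, against 34.6 in WT cells (fold 4.29, 95% interval 1.52 to 12.5). Spi1 itself had no peak inside the gene in either list.

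Fli1 and Ets1 are neighbours on chromosome 9, 92.8 kb apart, and differed in the lists. FLI1 maintains blood stem cells and platelet precursors, and ETS1 is best known from lymphocytes. Fli1, from 32422204 to 32543432, carried 12 cDC1 peaks, of which 10 lay inside the gene, 8.25 per 100 kb. All 10 lay in the upper 68.4 kb of the gene. The peak with the highest score, at 32508680 to 32508870, had 6.16 normalised tags in KO cells, against 76.8 in WT cells (fold 12.4, 95% interval 5.84 to 27.3). The next peak, at 32507568 to 32507758, had 2.88 in KO cells, against 56.0 in WT cells (fold 19.4, 95% interval 6.56 to 63.2). Neighbouring peaks of Fli1 were as close as 0.869 kb, with a median of 7.87 kb.

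Toward the upper end of Fli1, 3 peaks lay within 3.92 kb of it. That nearest to the end, at 32542290 to 32542480, lay 1.05 kb inside it and had 0.822 normalised tags in KO cells, against 29.3 in WT cells (fold 35.7, 95% interval 6.26 to 1422.4), an interval that is wide because 1 KO tag stands behind it. Over all 12 peaks, KO values ran from 0.411 to 6.16 normalised tags, against 7.75 to 76.8 in WT cells. At 2 of the 12, KO tags stood at the lowest value. The peaks covered 2292 bp and held 35.0 KO tags, against 1272.1 WT tags, before scaling. In cDC2 the single Fli1 peak, at 32509618 to 32509808, had 2.93 normalised tags in KO cells, against 28.3 in WT cells (fold 9.65, 95% interval 2.30 to 90.7). Its centre lay 938 bp from that of the highest cDC1 peak, with no overlap.

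Ets1, from 32636241 to 32757820, had no peak in the gene and none nearest to it. The closest cDC1 peak below it, at 32582266 to 32582456, was 53.9 kb away and was nearest to Fli1. Above it the next cDC1 peak, near St3gal4, was 2292 kb away. The stretch free of cDC1 peaks around Ets1 was thus 2.47 Mb long and held 2 protein-coding genes, Ets1 and Kirrel3. Of 31446 gaps between neighbouring cDC1 peaks, 128 were longer, which is 0.407%, and the median gap was 17.5 kb. In cDC2 the gap was 2.55 Mb, and 8.82% of gaps were longer. These shares count each gap once, whatever its length. A gene is more likely to lie in a long gap, so they do not tell how rare such a gap is around a gene. A region without a listed peak may hold signal below the limits of the list or signal that the knockout set shares, and the lists do not tell these apart.

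Ets2 encodes a factor that responds to growth and inflammatory signals in macrophages. It lies on chromosome 16 from 95702407 to 95721049, on the plus strand, and all of its peaks lay outside the gene. The cDC1 peak nearest to its start, at 95701931 to 95702121 and 381 bp before it, was weak, with 1.64 normalised tags in KO cells, against 10.1 in WT cells (fold 6.15, 95% interval 1.59 to 52.9). The peak with the highest score lay 106 kb beyond the upper end, at 95827417 to 95827607. Its KO tags stood at the lowest value, against 26.1 normalised tags in WT cells, 10.6-fold above 3 KO tags (exact 95% lower limit 8.48). The same place was listed in cDC2, at 95827411 to 95827601, with 5.86 normalised tags in KO cells, against 28.3 in WT cells (fold 4.82, 95% interval 1.57 to 20.9). A second cDC2 peak, at 95839766 to 95839956 and 119 kb beyond the gene, had 2.93 in KO cells, against 18.8 in WT cells (fold 6.43, 95% interval 1.33 to 61.2). These distant sites belong to Ets2 only as the nearest protein-coding gene. The second one lies in the non-coding RNA gene 1600002D24Rik.

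Elf1, which encodes a factor of lymphoid and myeloid cells, lies on chromosome 14 from 79481174 to 79582491, on the plus strand, and had 3 cDC1 peaks, all inside the gene. Of these, 2 stood just after a start site. The peak at 79481240 to 79481430, centred 141 bp after it, had 3.29 normalised tags in KO cells, against 19.3 in WT cells (fold 5.85, 95% interval 2.18 to 22.0). The peak at 79481665 to 79481855, centred 566 bp after it, had 2.88 in KO cells, against 19.6 in WT cells (fold 6.79, 95% interval 2.24 to 22.6). The first reached 4 bp into the promoter window of Elf1 and lies within that of Wbp4, a splicing factor gene that starts beside it in the other direction. The third peak, at 79552758 to 79552948, had the highest score of the gene, with 1.64 normalised tags in KO cells, against 22.7 in WT cells (fold 13.8, 95% interval 3.72 to 116.7).

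**Figure D2:**
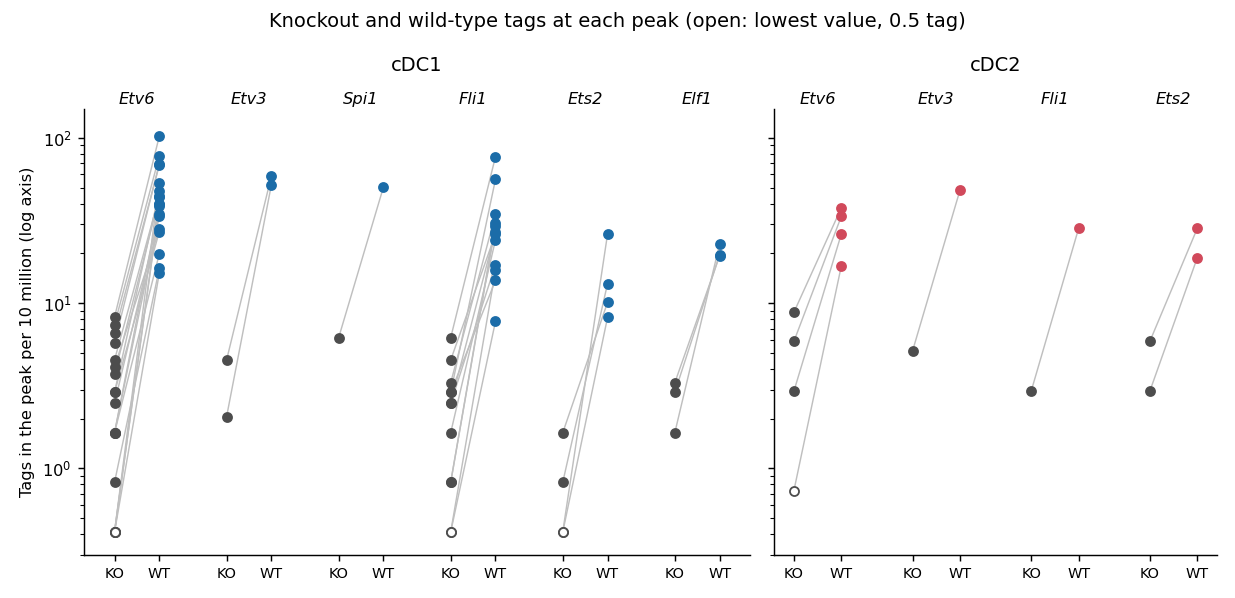
Tags per 10000000 tags at each peak on a log axis, KO on the left and WT on the right of each gene, joined by a line per peak, for cDC1 and cDC2, with open circles where KO tags stood at the lowest value. In each gene and subset every WT value lies above every KO value, where a fold of at least 4 was a condition of listing.

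Position at start sites could be read for 4 of the 7 genes, those with a RefSeq promoter window: Etv3, Etv6, Ets2 and Elf1, of which Elf1 has 2. In cDC1 the windows of Etv6 and the first one of Elf1 were touched by a peak, and 21.9% of 21263 windows of protein-coding genes were. In cDC2 only that of Etv6 was touched, where 1.27% of all windows were. For Spi1, Fli1 and Ets1 only the lower and upper gene ends are given.

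Taken as a list, the 40 cDC1 peaks had a median of 2.47 normalised tags in KO cells, against 29.8 in WT cells. Over all 31473 cDC1 peaks the medians were 1.64 in KO cells and 15.5 in WT cells. Without Etv6, the 22 cDC1 peaks of the other genes had a WT median of 25.1, and 12 of these peaks belonged to Fli1. By gene the WT median was 55.2 for Etv3, 26.6 for Fli1, 19.6 for Elf1 and 11.6 for Ets2, and the single Spi1 peak had 50.3. The higher median was thus not shared by every gene. The median fold of the 40 peaks was 13.3, against 10.2 over the whole list, and with peaks at the lowest KO value set to their lower bound it was 11.9, against 7.52. KO tags stood at the lowest value at 8 of the 40, and at 20.1% of all cDC1 peaks. Peaks centred inside a gene were 27 of 40, and 56.0% of the whole list.

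In cDC2 the 8 peaks had a median of 4.03 normalised tags in KO cells, against 28.3 in WT cells. Over all 2776 cDC2 peaks the medians were 3.66 in KO cells and 24.1 in WT cells. The median fold was 7.68, against 7.42 over the list. With lower bounds it was 6.07, against 6.08. Peaks centred inside a gene were 3 of 8, and 50.1% of the whole list. The median fold over the surrounding 10 kb, another readout of the lists, was 6.62 at the ETS peaks and 6.65 over all peaks in cDC1. In cDC2 it was 8.64 and 9.34. Listing required a fold of at least 4 over the surroundings as well, so these medians describe listed peaks only. Within that limit those of the ETS peaks were close to those of all peaks.

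**Figure D3:**
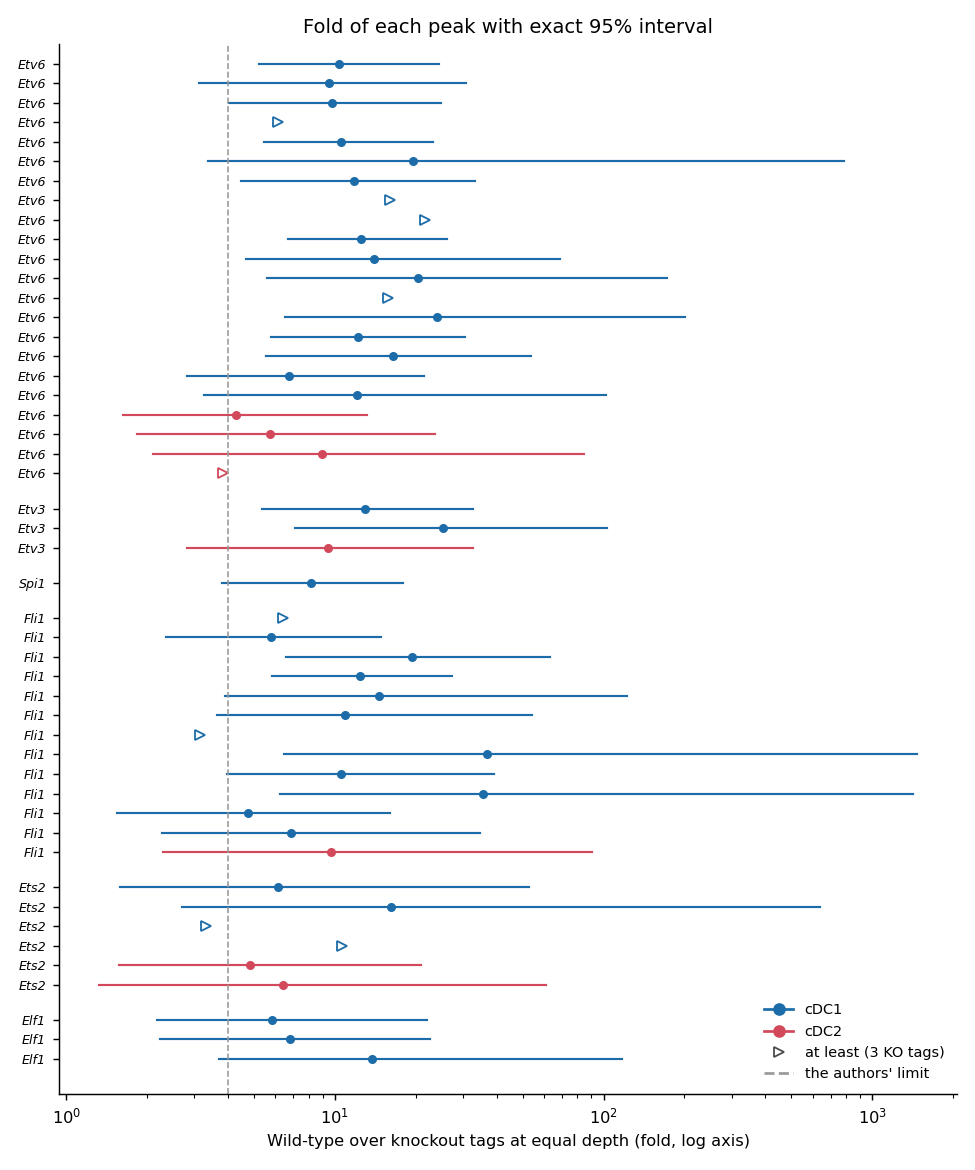
Fold of WT over KO tags for each of the 48 peaks on a log axis, with exact 95% intervals from the tags, and open triangles for lower bounds against 3 KO tags. The intervals of the cDC2 peaks all reach below the authors' limit of 4, drawn as a dashed line. Those at Etv6 in cDC1 that rest on 6 or more KO tags lie above it, as do several there that rest on fewer.

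The sites of both subsets were compared next. Counting any overlap of 1 bp or more, 5 of the 8 cDC2 peaks were shared with cDC1, as were 63.7% of all cDC2 peaks. The shared sites were 3 peaks of Etv6 and 1 each of Etv3 and Ets2. These were 5 of the 40 cDC1 peaks, and 5.61% of all cDC1 peaks were shared. At the start of Etv6, cDC1 had 1.81 times the WT normalised tags of cDC2 (95% interval 1.13 to 3.12). At 79.5 kb after the start of Etv6 the ratio of cDC1 to cDC2 was 2.32 (95% interval 1.40 to 4.12), and at 121 kb after it 1.67 (95% interval 0.967 to 3.44). At the 79.5 kb site the peaks of the subsets overlap by only 79 of 191 bp, so their tags come in part from different stretches. The Etv3 site had a ratio of 1.08 (95% interval 0.696 to 1.74) and the Ets2 site one of 0.922 (95% interval 0.507 to 1.70). Over all 1767 shared regions the median ratio was 1.09, with quartiles of 0.793 and 1.53. The 3 Etv6 regions lay above the upper quartile, and those of Etv3 and Ets2 between the quartiles. Since 1 mouse pool stands behind WT cDC2, a difference between subsets could not be tested.

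**Figure D4:**
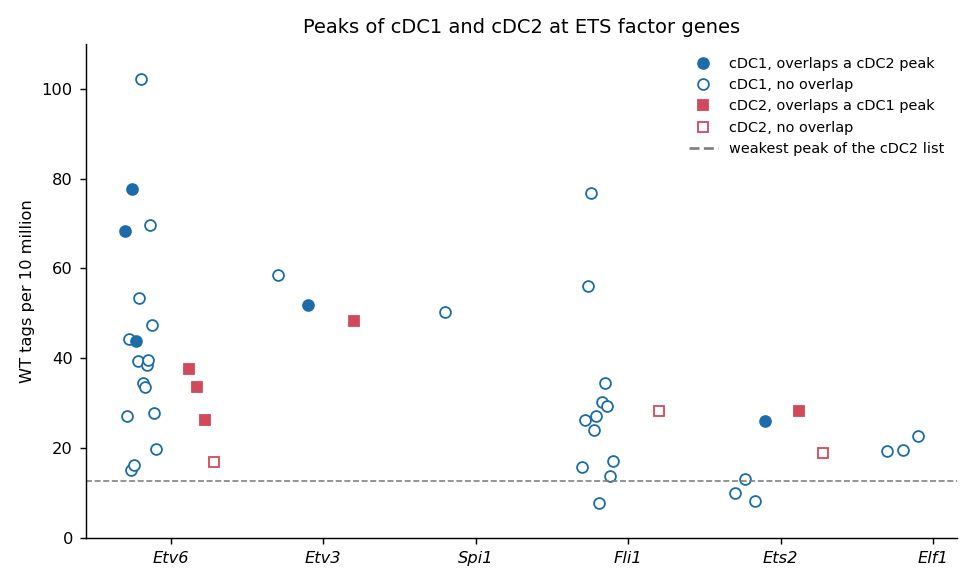
WT tags per 10000000 tags of each peak, by gene, with circles for cDC1 and squares for cDC2, filled where the peak overlaps one of the other subset, and a dashed line at the weakest peak of the cDC2 list. The strongest Etv6 peak, at 102.3 in cDC1, is open, and 3 of the 40 cDC1 peaks lie below the line.

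Depth limits what absence from the cDC2 list means. The WT set of cDC1 held 7.43 times the tags of that of cDC2. Of the WT tags, 6.47% lay in listed peaks in cDC1 and 0.79% in cDC2. The weakest peak listed in cDC2 had 12.6 normalised tags, and 37 of the 40 cDC1 peaks reached that level, of which 5 were shared. Reaching that level does not mean that a site would be listed, since a fold of 4 over KO was also needed. Of the 10 ETS peaks with at least 50 normalised tags in cDC1, 3 were shared, and 22.2% of all cDC1 peaks that high were. At equal density the strongest Etv6 peak would give 48.8 tags in the cDC2 set, the Spi1 peak 24.0 and the Elf1 peaks between 9.22 and 10.8, where the cDC2 list starts at 6 tags. Among peaks of at least 50 normalised tags, absence from the cDC2 list was thus the more common outcome. Whether WT cDC2 had less signal there, or KO cDC2 more, cannot be read from the lists.

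The rest of the family was counted in the same way. Of 19 other genes of the mouse ETS family, 13 had a cDC1 peak, 44 peaks in all, where 51.3% of protein-coding genes had one. In cDC2, 5 had a peak, 7 in all, where 9.53% of protein-coding genes had one. Elf2, a relative of Elf1, carried the most, with 10 in cDC1 and 2 in cDC2, and Elk3, a partner of serum response factor, had 7 and 1. By cDC1 score Etv1, Gabpa, Elf2 and Elk4 came first among these 19. The Etv1 peak, 1.77 kb below the gene, had 2.47 normalised tags in KO cells, against 41.6 in WT cells (fold 16.8, 95% interval 5.68 to 83.0). That of Gabpa, which lies at the lower end of the gene and inside Atp5j as well, had 2.47 in KO cells, against 43.0 in WT cells (fold 17.4, 95% interval 5.87 to 85.8). Elf2 reached 36.2 and Elk4 43.8 normalised tags in WT cells.

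Beside Elf2 and Elk3, the genes with cDC2 peaks were Ehf with 2, Elf4 with 1 and Erg with 1. The Erg peak was the highest of them, with 7.33 normalised tags in KO cells, against 37.7 in WT cells (fold 5.15, 95% interval 1.84 to 17.7). Etv2, Etv4, Spib, Spic, Fev and Spdef had no peak in either list. Spib and Spic encode the closest relatives of PU.1. The WT median of the 44 cDC1 peaks was 15.3 normalised tags, close to the 15.5 of the whole list and below the 29.8 of the 40 peaks described above. The list of 19 leaves out Etv3l, a gene beside Etv3, at which a cDC1 peak, 21.7 kb from Etv3, had 2.05 normalised tags in KO cells, against 17.5 in WT cells. The 7 genes were chosen with earlier results of these data known, so this difference carries no test.

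**Figure D5:**
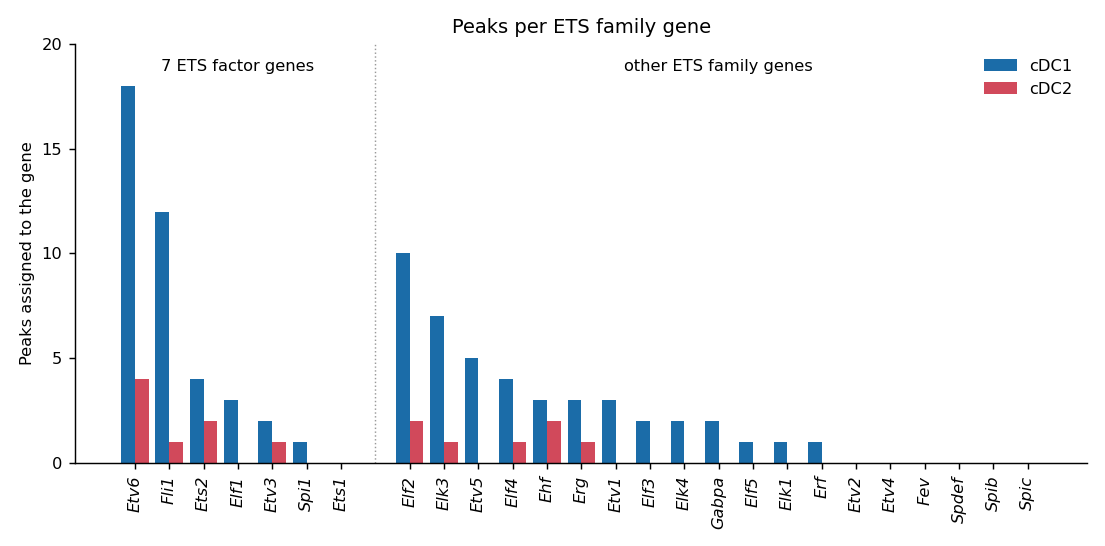
Number of peaks assigned to each gene of the ETS family, blue for cDC1 and red for cDC2, the 7 genes described here on the left and the 19 others on the right. Etv6 with 18 and Fli1 with 12 carry the most cDC1 peaks, and Ets1 and 6 of the others carry none.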

How the data were processed

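The CUT&Tag libraries were put into 4 groups by the subset and genotype in their titles. Peaks were called by the authors with HOMER findPeaks on 1 wild-type tag set with 1 knockout set as control, per the file headers. The headers state a fixed peak width of 191 bp, a false discovery rate of 0.001, and a fold of at least 4 with a Poisson p-value of at most 0.0001, over knockout and over the surrounding 10 kb. Builds GRCm38 and mm10, names of one assembly, come from the submitters' processing notes. In peak calling at most 1 tag per bp was considered, per the headers. No source used here names the aligner, any removal of duplicates before that step or the libraries that entered each set. The deposited signal is tags per 10000000. The deposited score is HOMER's own. The deposited fold is a ratio, WT over KO tags scaled to 1 depth. A further deposited ratio sets each peak against its surroundings. The deposited focus ratio is a fraction and was not reported. The deposited p-values were not used.

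Knockout depths were worked out from the scaling between the columns, and tags were returned to unscaled tags. Intervals are exact (Clopper-Pearson, scipy 1.17.1, Python 3.11.15), with tags rounded to whole numbers. Molecular identifiers are not given, but the limit of 1 tag per bp restricts how far repeated tags can count. The intervals treat tags as independent and may still be too narrow. Genes, start sites and sequences come from RefSeq tables of GRCm38.p6, which give no exons, so exon and intron are not stated. All 7 genes matched by symbol and 4 have a promoter window. The ETS genes, lists and rules were chosen with earlier results of these data known. Named sites are, per gene and subset, the highest-scoring peak, every cDC2 peak and the peak nearest the start or gene end; others were chosen after their values were seen. The assignment was checked only with peaks placed at the middle of genes where no other gene lies, so the nearest-gene rule was not tested. The intervals were tested on simulated tags with WT deeper than KO, as in cDC1 and unlike cDC2. That simulation applied no fold limit. No test between genotypes was made, because the lists hold no value per library. One marker list is not reported here.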

Additional observations from a re-analysis of the deposited data

How the results depend on the processing

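The counts rest on how peaks are tied to genes, most of all in cDC2. Counting only peaks that overlap the gene body, 3 ETS genes had a peak in cDC1 and 2 in cDC2, with 3 cDC2 peaks in all, since Spi1, Etv3 and Ets2 have peaks only outside the gene. The 8 cDC2 peaks became 5 when limited to 10 kb from the gene, 5 when non-coding genes could be nearest, and 4 with a fold of at least 8. With the 50% of peaks of higher score, 2 of the other ETS genes had a cDC2 peak, where 5 had one in the full list. The remaining 31 of 38 changes of setting to the main counts and medians stayed within 1.5 times or within the 95% interval of the median. Of the counts of single genes, 21 moved by more than 1.5 times and 45 did not. The cDC2 count of Ets2, 2 in the report, became 0 within 10 kb, with non-coding genes and with a fold of at least 8, as well as with gene overlap and within 50 kb, and its cDC1 count of 4 became 0 to 3. Elf1 fell to 1 cDC1 peak with a fold of at least 8, against 3, and Spi1 had 6 within 50 kb, against 1. The counts of Fli1 stayed within 1.5 times under each setting. In cDC1 the 40 peaks became 27 to 35 under the planned settings, and 53 with every peak within 50 kb of an ETS gene, a setting added after the data were seen. Shared cDC2 peaks numbered 4 with an overlap of 50% and 6 with centres within 1 kb. Depth in cDC2 limits statements on absence there, most of all for the 3 cDC1 peaks weaker than any cDC2 peak. It also bears on stronger ones, because listing needed a fold of 4 over KO. No paired analysis was possible because the lists hold no value per library, and for the same reason no library could be left out.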
